A study of Mus musculus with 10 samples.

Results

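The ubiquitin ligases linked to muscle atrophy and the FoxO transcription factors were compared between young and aged gastrocnemius muscle. The 10 genes were listed by name: the ligase genes Fbxo32, Trim63, Fbxo30, Trim54, Trim55, Cblb and Nedd4, and the factors Foxo1, Foxo3 and Foxo4. Each was taken at its most abundant transcript by the mean of the 10 libraries, out of 37947 gene symbols in the deposited values, and all 10 were among the 10161 genes with a mean FPKM of at least 1 that were tested. FPKM is the number of fragments scaled to the length of the transcript and to the number of fragments mapped in the library. The muscle came from male C57BL/6 mice that carried no allele or treatment other than their age, 5 young mice at 6 months and 5 aged mice at 24 months, with 1 library of poly-A RNA for each mouse. Libraries are named by their age and number, such as aged 5. In whole muscle, fewer cells of a type and less RNA per cell cannot be told apart.

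Muscle wasting in fasting, disuse, denervation and glucocorticoid excess is known to run largely through the ubiquitin-proteasome system, in which a ligase selects the protein to be degraded. FoxO factors are kept out of the nucleus when insulin or IGF1 activates Akt, and when that signal drops they enter the nucleus and drive a program of atrophy genes. The ligases encoded by Fbxo32 (atrogin or MAFbx) and Trim63 (MuRF1) are the classical markers of that program, and aging muscle loses mass more slowly than muscle in these acute states.

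The libraries held 19886361 to 34554354 reads, recovered from the steps between the deposited values. Values of FPKM that did not reach 1 were set to 0 in the files, and a gene at 0 can therefore be expressed below that level. The fast-fiber and general myofiber markers (Acta1, Ckm, Tnnt3, Myh4, Myh1, Mylpf and Pvalb) had a summed level of 16.8 to 17.0 in young and 16.6 to 17.1 in aged libraries on the log2 FPKM scale. The libraries numbered 3 stood apart from the others. The number of transcripts above 0 was 35024 in young 3 and 29878 in aged 3, against 38855 to 43296 elsewhere. Their values also fell with gene length: among genes whose longest coding transcript was under 1 kb, the median deviation from each gene's median was 0.41 in young 3 and 0.79 in aged 3 (log2), and among genes of 6 kb or more it was -0.44 and -0.64. For each of the 10 genes the age difference is also given without the libraries that moved it most.

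Fbxo32 encodes the F-box subunit by which an SCF ligase recognizes substrates such as MyoD and eIF3f. It lies at chr15:58175879-58214892 (GRCm38). The log2 FPKM of Fbxo32 was 5.68, 6.50, 5.19, 5.74 and 5.50 in young libraries 1 to 5 and 5.91, 5.73, 4.06, 6.37 and 8.46 in aged libraries 1 to 5. Aged muscle held both the lowest value, in aged 3, and the highest, in aged 5, and the young range lay inside the aged range. Young muscle averaged 5.72 ± 0.49 (SD, n = 5) and aged muscle 6.11 ± 1.58 (SD, n = 5), which differ by 0.38 with a standard error of 0.66 (exact permutation test, two-sided, p = 0.643). Without aged 5 the difference turned to -0.21 (exact permutation p = 0.746), without aged 3 it was 0.89 (exact permutation p = 0.143), and without young 2 or young 3 it was 0.58 or 0.25. The reads behind these values numbered 3680 in aged 3 and 49397 in aged 5, so counting error was small beside the spread between mice. In the annotation 186 bases of Fbxo32 exons overlap an antisense gene, whose reads cannot be told apart in unstranded libraries.

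Trim63 encodes a RING-finger ligase of the sarcomere that ubiquitinates thick-filament proteins such as myosin heavy chain. Its gene is at chr4:134315120-134329629 (GRCm38). In young libraries 1 to 5 the log2 FPKM of Trim63 was 7.16, 8.47, 8.32, 7.20 and 8.29, and in aged libraries 1 to 5 it was 7.35, 7.36, 6.18, 7.57 and 10.44. Young libraries fell into a high set (2, 3 and 5) and a low set (1 and 4), 4 of the aged libraries lay between 6.18 and 7.57, below the high set, and aged 5 lay above every other library. Young muscle averaged 7.89 ± 0.65 (SD, n = 5) and aged muscle 7.78 ± 1.59 (SD, n = 5), a gap of -0.11 and a standard error of 0.68 (exact permutation p = 0.968). The medians, 8.29 in young and 7.36 in aged libraries, lay further apart than the means. Without aged 5 the mean difference was -0.77 (exact permutation p = 0.119) and without aged 3 it was 0.30 (exact permutation p = 0.794), and leaving out any other library left it between -0.29 and 0.04. The gene's 4 listed transcripts share most of their reads, and aged 5 was the highest library for each of them.

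The promoter window of Trim63 is shown because it is the only 1 of the 8 windows available for these genes in which a forkhead motif was found. That of Trim54 is shown beside it as the window of a closely related gene with a nearly even level. Both run from 250 bases before to 50 bases after the gene start, are taken from RefSeq (GRCm38.p6) and are on the + strand, at chr4:134314870-134315169 for Trim63 and chr5:31116362-31116661 for Trim54. Capitals mark the forkhead motif GTAAACA, here read on the other strand as TGTTTAC, and the palindrome GAACANNNTGTTC of the kind bound by steroid receptors.
Trim63: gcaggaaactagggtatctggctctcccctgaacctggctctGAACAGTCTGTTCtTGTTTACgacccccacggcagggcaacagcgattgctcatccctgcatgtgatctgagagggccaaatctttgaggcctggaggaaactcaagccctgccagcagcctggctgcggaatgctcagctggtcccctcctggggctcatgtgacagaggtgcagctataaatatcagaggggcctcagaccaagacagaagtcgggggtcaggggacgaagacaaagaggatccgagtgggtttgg
Trim54: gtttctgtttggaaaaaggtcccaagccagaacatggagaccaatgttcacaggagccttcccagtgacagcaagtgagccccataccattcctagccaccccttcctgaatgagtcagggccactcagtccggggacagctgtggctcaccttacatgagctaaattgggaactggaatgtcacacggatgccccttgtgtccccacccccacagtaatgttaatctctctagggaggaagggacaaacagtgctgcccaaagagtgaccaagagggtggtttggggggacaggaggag
The palindrome starts 208 bases before the Trim63 start and the forkhead motif 194 bases before it, with 1 base between them. Windows were found for 7 of the 10 genes (8 windows). Fbxo32, Trim55 and Foxo4 had no window, so their promoters were not searched. On either strand the forkhead motif was in 3.65% of all 32851 windows of that length and the palindrome, searched for after the Trim63 window had been read, in 0.0578%, and 2 windows in all held both. A match is a string of letters and was not tested as a binding site. None of the other 6 genes with a window held either string.

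Trim54 and Trim55, at chr5:31116612-31137626 and chr3:19644344-19692584 (GRCm38), encode MuRF3 and MuRF2, relatives of the Trim63 product that bind microtubules and titin. For Trim54 the log2 FPKM was 7.96, 8.54, 8.69, 7.87 and 8.00 in young libraries 1 to 5 and 7.78, 8.05, 8.06, 7.74 and 8.57 in aged libraries 1 to 5. It was the steadiest of the ligases, with means of 8.21 ± 0.37 (SD, n = 5) and 8.04 ± 0.33 (SD, n = 5), overlapping groups and an exact permutation p of 0.421. The difference of -0.17 lay between -0.31 (without aged 5) and -0.06 (without young 3) with single libraries left out. An antisense gene overlaps 382 bases of its exons. Trim55 gave 4.58, 4.23, 3.40, 4.75 and 4.50 log2 FPKM in the young group and 4.51, 4.65, 1.45, 4.81 and 3.88 in aged libraries, in the order of their numbers. The value of 1.45 in aged 3 stood far below the rest and rested on 155 reads, and the other 9 libraries lay between 3.40 and 4.81. The difference for Trim55 was -0.43 (standard error 0.60, exact permutation p = 0.683) and turned to 0.17 without aged 3 (exact permutation p = 0.619), and it was -0.66 without young 3. Aged 5, highest for Trim63, was below the median for Trim55.

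Fbxo30 encodes the F-box protein known as MUSA1, a ligase held down by BMP signaling in muscle. Its gene is at chr10:11281330-11305750 (GRCm38). Fbxo30 had log2 FPKM values of 1.61, 1.44, 0.13, 1.62 and 1.57 in young libraries 1 to 5 and 1.37, 1.78, 0, 2.34 and 2.97 in aged libraries 1 to 5. The lowest libraries were the 2 numbered 3 and the highest were aged 4 and aged 5. In the libraries where it was above 0 this gene had 94 to 396 reads and lay near the limit of 1 FPKM. Its 0 in aged 3 stands for an FPKM under 1 and is not a count of reads. The difference of 0.42 (standard error 0.52) was within the spread between mice (exact permutation p = 0.516). It was 0.15 with a pseudocount of 1 and 0.20 after quantile normalization. It rested on single libraries, being 0.84 without aged 3 (exact permutation p = 0.103), 0.10 without aged 5 (exact permutation p = 0.881) and 0.13 without young 3.

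Cblb encodes a RING ligase that is known to degrade the insulin receptor substrate IRS1 during unloading, and Nedd4 encodes a HECT ligase that is induced by denervation. They lie at chr16:52031230-52208047 and chr9:72662331-72749851 (GRCm38). Cblb was measured at 0.81, 1.53, 0.37, 0.69 and 0.97 log2 FPKM in the young libraries and at 0.84, 0.75, 0.32, 1.33 and 1.88 in the aged libraries, in the order of their numbers. All 10 values lay within 2 log2 units of the detection limit, the groups overlapped, and the difference was 0.15 (exact permutation p = 0.683). It was -0.06 without aged 5, 0.32 without aged 3, 0.31 without young 2 and 0.02 without young 3. Nedd4 had, in the same order, 5.80, 5.76, 4.84, 5.96 and 5.65 log2 FPKM in the young group and 5.86, 5.97, 3.63, 6.30 and 6.14 in the aged group. In both ages 4 libraries lay close together and the library numbered 3 lay well below them. The mean difference for Nedd4 was -0.02 with all libraries (exact permutation p = 0.992). Without aged 3 it was 0.46 (exact permutation p = 0.0397), and with both young 3 and aged 3 left out it was 0.27 (exact permutation p = 0.0571), so the call depends on aged 3.

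Foxo1 encodes the FoxO factor whose overexpression is known to reduce muscle mass, and its gene is at chr3:52268337-52350109 (GRCm38). Foxo1 was measured at 0.71, 2.58, 2.83, 0.99 and 3.17 log2 FPKM in young mice 1 to 5 and at 1.24, 1.34, 1.08, 2.18 and 2.28 in aged mice 1 to 5. Young libraries 1 and 4 were the lowest of all 10 and young libraries 2, 3 and 5 the highest, so the aged range lay inside the young range. Young muscle averaged 2.06 ± 1.13 (SD, n = 5) and aged muscle 1.62 ± 0.56 (SD, n = 5) (exact permutation p = 0.429). The difference of -0.43 ran from -0.77 without young 1 (exact permutation p = 0.183) to -0.15 without young 5 (exact permutation p = 0.762) and was -0.10 with both young 3 and aged 3 left out. An antisense gene overlaps 674 bases of the Foxo1 exons.

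Foxo3 encodes the factor best known for driving Fbxo32 and autophagy genes, and lies at chr10:42181845-42276695 (GRCm38). For Foxo3 the log2 FPKM was 1.41, 2.18, 1.48, 1.41 and 2.09 in young libraries 1 to 5 and 1.74, 1.66, 1.48, 2.01 and 3.01 in aged libraries 1 to 5. Aged 5 was the highest library and the other 9 overlapped fully, with a difference of 0.27 (exact permutation p = 0.476). Without aged 5 it was 0.01 (exact permutation p = 0.984).

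Foxo4, at chrX:101254261-101260873 (GRCm38), was the most abundant of the 3 factors. Its level was 5.77, 5.90, 5.68, 5.84 and 5.75 log2 FPKM in young mice 1 to 5 and 5.61, 5.68, 5.22, 5.72 and 5.89 in aged mice 1 to 5. It was also the most even, with an SD of 0.08 in young and 0.25 in aged libraries (n = 5 each), and 4 of the 5 aged libraries were lower than their same-numbered young library. The difference of -0.17 did not pass the exact permutation test as deposited (p = 0.183). It did pass, at an exact permutation p of 0.0238 and a difference of -0.23, without aged 5, and it also passed after median of ratios scaling (-0.21, p = 0.0159), after quantile normalization (-0.23, p = 0.0238) and with each library's length trend removed (-0.23, p = 0.00794). Without aged 3 the difference shrank to -0.06 (exact permutation p = 0.365) and with both young 3 and aged 3 left out to -0.09 (exact permutation p = 0.229). Of the gene's 2 other transcripts, the more abundant had a difference of -0.51 with a p of 0.683 by the exact permutation test.

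**Figure D1:**
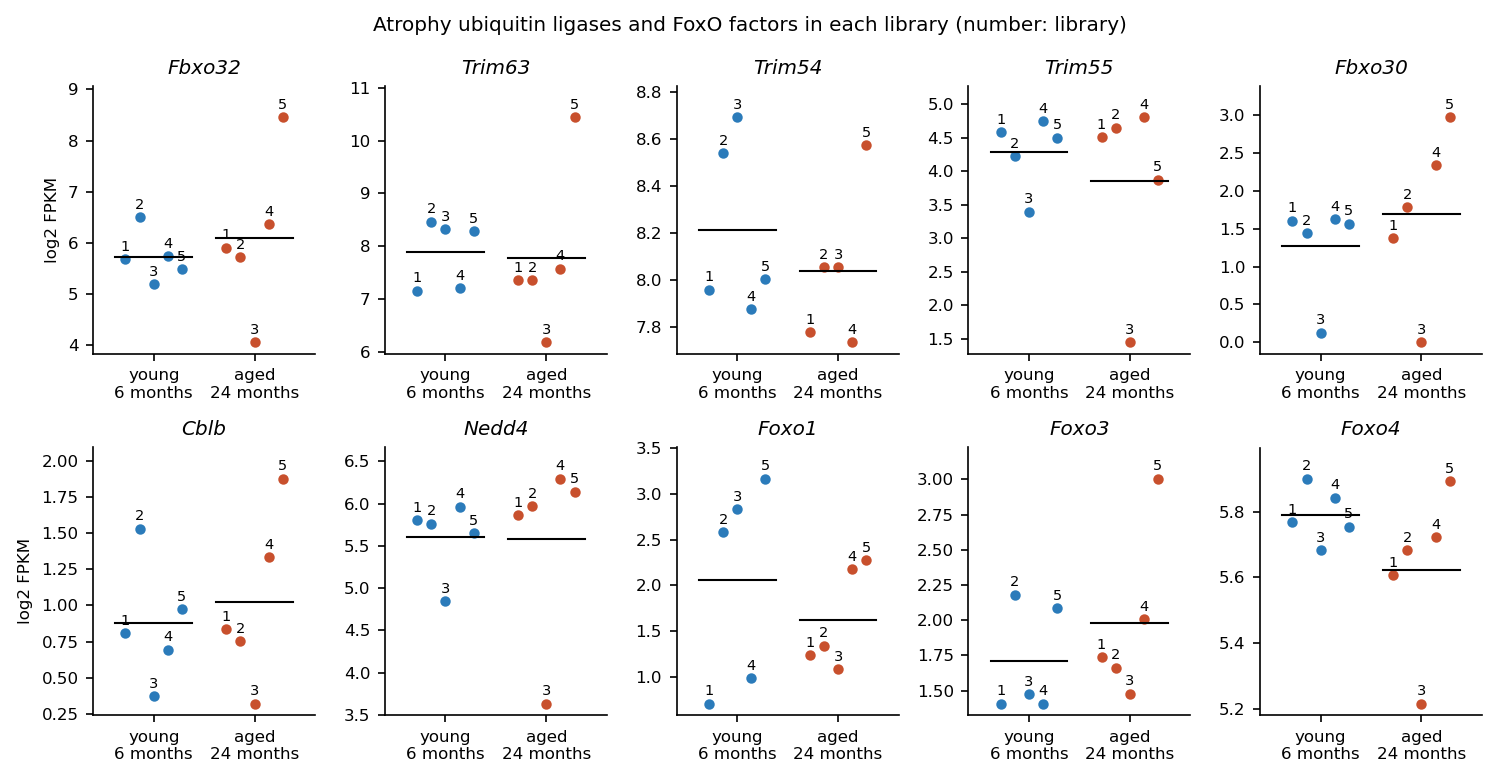
Log2 FPKM (vertical axes, each with its own range that does not start at 0) of the 10 genes in 5 young (blue) and 5 aged (red) libraries, with the library number above each point and the group mean as a line. Aged 5 stands above all other libraries for Fbxo32 (8.46) and Trim63 (10.44), aged 3 stands lowest for 7 genes, and the age groups overlap in every panel.

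No age difference was called for any of the 10 genes. By limma, 0 of 10 had an adjusted p under 0.05, where 0.00788% of the 38059 transcripts tested did, and 0 of 10 had an unadjusted p under 0.05, the lowest being 0.310 for Foxo4. By the exact permutation test 0 of 10 had an unadjusted p under 0.05 in either direction, where 7.73% of all genes were higher and 1.5% were lower in aged muscle (785 and 152 of 10161). That background depends on the scaling, with 548 higher and 316 lower after median of ratios scaling and 429 and 346 after quantile normalization. The groups did not overlap for 0 of the 10 and for 2.42% of all genes. On average 4 were higher in aged muscle (Fbxo30, Fbxo32, Foxo3 and Cblb) and 6 were lower, with a median difference of -0.06 against 0.07 over all genes. The exact test of 5 libraries against 5 cannot give a p under 0.00794. With 1 library for each mouse, the replicates measure the spread between mice together with that between library preparations.

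The intervals of the differences set how much these libraries could show. The 95% interval lay within 1 log2 unit of 0, a 2-fold difference, for 4 genes. These were Trim54 (-0.68 to 0.33), Cblb (-0.54 to 0.84), Foxo3 (-0.41 to 0.94) and Foxo4 (-0.51 to 0.18). For Fbxo32 it ran from -1.08 to 1.84 and for Trim63 from -1.62 to 1.41, so that a 2-fold difference in either direction was not detectable for the pair of classical markers. Spread was larger in aged than in young muscle for 8 of the 10 genes, Trim54 and Foxo1 being the other two.

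**Figure D2:**
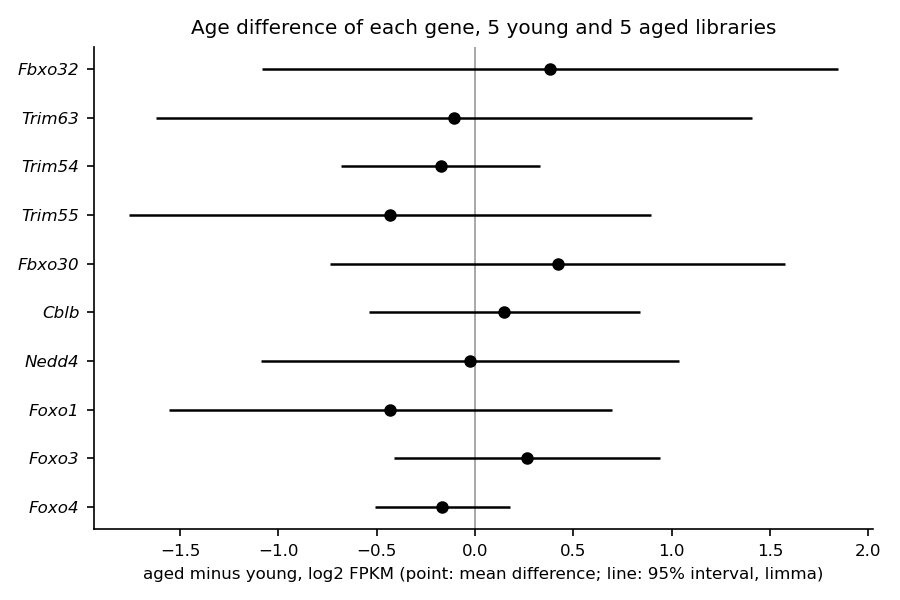
Mean difference of aged minus young libraries in log2 FPKM (points) with the 95% interval from limma (lines) for each gene, 5 libraries a group. Every interval includes 0, and the intervals of Fbxo32 (-1.08 to 1.84) and Trim63 (-1.62 to 1.41) are much wider than that of Foxo4 (-0.51 to 0.18).

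Levels per transcript length were compared between neighbors in the order of their means, which gave 4 tiers. Genes further apart within a tier were not compared and can differ. The highest mean log2 FPKM over the 10 libraries belonged to Trim54, followed by Trim63, Fbxo32, Foxo4, Nedd4, Trim55, Foxo3, Foxo1, Fbxo30 and Cblb. Neighbors in this order that differed by more than the SD of their difference were Trim63 and Fbxo32 (1.92 ± 0.62, SD, n = 10, higher in 10 of 10 libraries), Nedd4 and Trim55 (1.52 ± 0.39, SD, n = 10, higher in 10 of 10) and Trim55 and Foxo3 (2.23 ± 1.08, SD, n = 10, higher in 9 of 10). The remaining neighbors did not differ beyond their spread, among them Trim54 and Trim63 (0.29 ± 0.95, SD, n = 10) and Foxo3 and Foxo1 (0.01 ± 0.74, SD, n = 10). In linear terms Trim63 ranged from 72.5 FPKM in aged 3 to 1394 FPKM in aged 5, Fbxo32 from 16.7 to 352 FPKM in the same libraries, and Cblb from 1.25 to 3.67 FPKM.

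The widest departures were those of single libraries. Aged 5 was the highest of the 10 libraries for 5 of the 10 genes (Trim63, Fbxo32, Fbxo30, Foxo3 and Cblb), where 22.7% of all genes had their highest value there. Trim63 was 3.08 log2 units (8.48-fold) above the median of the other 9 libraries in aged 5, and Fbxo32 was 2.73 (6.65-fold) above it. Fbxo30 stood 1.41, Foxo3 1.34 and Cblb 1.07 log2 units above that median. The margin of aged 5 over the next highest library was 1.98 for Trim63 and 1.96 for Fbxo32, which ranked 11 and 12 among the margins of 10161 genes. Foxo4 and Nedd4 were 0.17 and 0.34 log2 units above the median there and Trim55 was 0.63 below it.

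Aged 3 was the lowest library for 7 of the 10 genes, where 40.0% of all genes had their lowest value there. The deviation of aged 3 from the median of the other 9 was -3.06 for Trim55, -2.23 for Nedd4, -1.68 for Fbxo32, -1.61 for Fbxo30 and -1.39 for Trim63. Trim54, whose transcript of 1408 bases is the shortest of the 10, was 0.05 above that median. The deviations did not follow transcript length throughout. Trim55 (1787 bases) and Trim63 (1855 bases), the next shortest, were among the lowest. Of the longest, Foxo3 (6848 bases) was at -0.26 and Cblb (6323 bases) at -0.52, and Fbxo32 (6936 bases) at -1.68. The part of the length trend of the libraries numbered 3 in these values was not tested gene by gene. With the trend removed from each library, 0 of the 10 age differences changed sign.

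**Figure D3:**
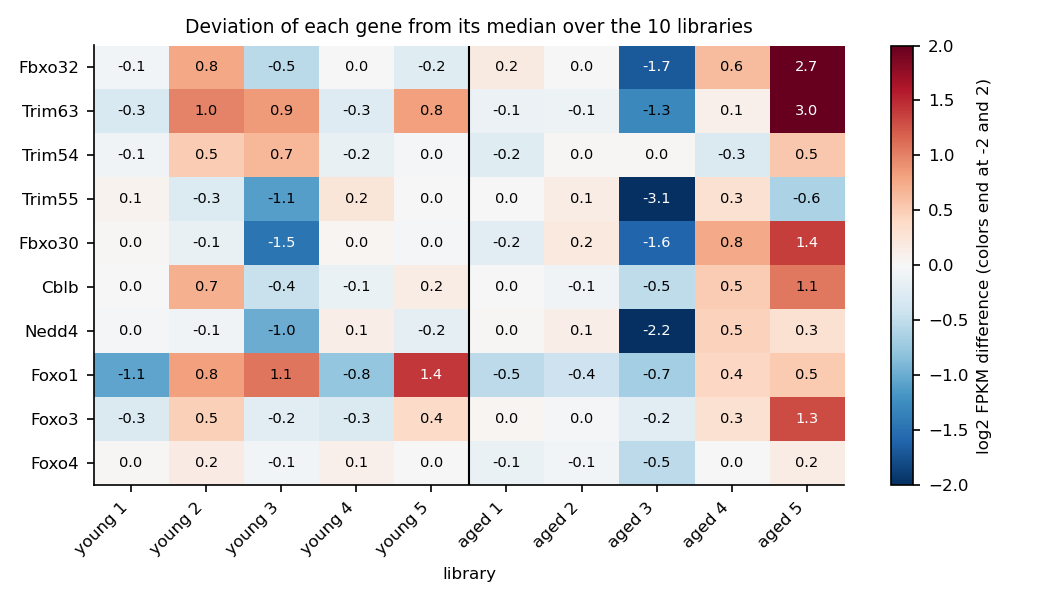
Deviation of each gene (vertical) in each library (horizontal) from its median over the 10 libraries, in log2 FPKM, with red above and blue below the median and the black line between young and aged. Aged 5 reaches 2.73 for Fbxo32 and 2.98 for Trim63, aged 3 is low for most genes but not for Trim54, and Foxo1 alternates within the young libraries.

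Among young mice a second contrast was seen in Foxo1 and Trim63, chosen here after the values had been seen and described without a test. Young libraries 2, 3 and 5 held 2.58 to 3.17 log2 FPKM of Foxo1 and 8.29 to 8.47 of Trim63, and young libraries 1 and 4 held 0.71 and 0.99 of Foxo1 and 7.16 and 7.20 of Trim63. Fbxo32 did not share it, its values in young 3 (5.19) and young 5 (5.50) being the lowest of the young group. Pdk4, a FoxO target that restrains glucose oxidation, had 8.15, 7.98 and 8.31 log2 FPKM in young 2, 3 and 5 and 5.75 and 5.88 in young 1 and 4. Ddit4, an inhibitor of mTORC1 that fasting and glucocorticoids induce, had 4.74, 6.93 and 7.04 against 1.57 and 2.87. Fkbp5, a target of the glucocorticoid receptor, had 6.12, 4.48 and 5.68 against 2.87 and 2.35. These 3 genes were picked for the contrast, and the FoxO targets as a list did not share its size, with a median deviation of 0.02, -0.17 and 0.01 in young 2, 3 and 5 and of -0.15 and -0.13 in young 1 and 4. Irs2, a target that encodes an insulin receptor substrate, was listed at 0 in young 3 and at 0.94 to 1.24 in the other young libraries.

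The 3 factors and the main ligases were then compared across the 10 libraries in 10 pairs, as a description of how they vary between mice. Pearson's r was 0.85 for Fbxo32 with Foxo3 (permutation p = 0.00373, adjusted over the 10 pairs 0.0187), 0.86 for Trim63 with Foxo3 (permutation p = 0.00352, adjusted 0.0187) and 0.85 for Fbxo32 with Trim63 (permutation p = 0.00753, adjusted 0.0251). Spearman's rho for the same pairs was 0.62, 0.75 and 0.53 (adjusted permutation p of 0.184, 0.0878 and 0.207). When the 2 libraries farthest from the median on the x axis were left out, r dropped to 0.42, 0.47 and -0.01, so that these relations rest on those libraries. Without aged 5 alone r was 0.57, 0.61 and 0.58, and none of the 3 pairs passed the adjusted permutation test. Without both libraries numbered 3 it was 0.88, 0.96 and 0.89 (adjusted permutation p of 0.0691, 0.0011 and 0.0849).

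For Trim63 with Foxo1 Pearson's r was 0.64 (permutation p = 0.0356, adjusted 0.0586) and Spearman's rho was 0.84 (permutation p = 0.00357, adjusted 0.0357), the only rho of the 10 pairs past the threshold. It was 0.70 by Pearson's r without the 2 libraries farthest in Foxo1 (adjusted permutation p = 0.230) and 0.84 without aged 5 (adjusted permutation p = 0.0342). Fbxo32 with Foxo4 had an r of 0.74 (permutation p = 0.0411, adjusted 0.0586), which was 0.60 without the 2 farthest libraries and 0.84 without aged 5. Fbxo32 with Foxo1 had an r of 0.27 and a rho of 0.09 (adjusted permutation p of 0.543 and 0.901). Same-numbered young and aged libraries deviated together, so the 10 points are not fully independent. With each age's mean subtracted r was 0.85 for Fbxo32 with Foxo3, 0.92 for Trim63 with Foxo3, 0.87 for Fbxo32 with Trim63, 0.93 for Fbxo32 with Foxo4, 0.91 for Fbxo30 with Foxo4 and 0.65 for Trim63 with Foxo1.

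**Figure D4:**
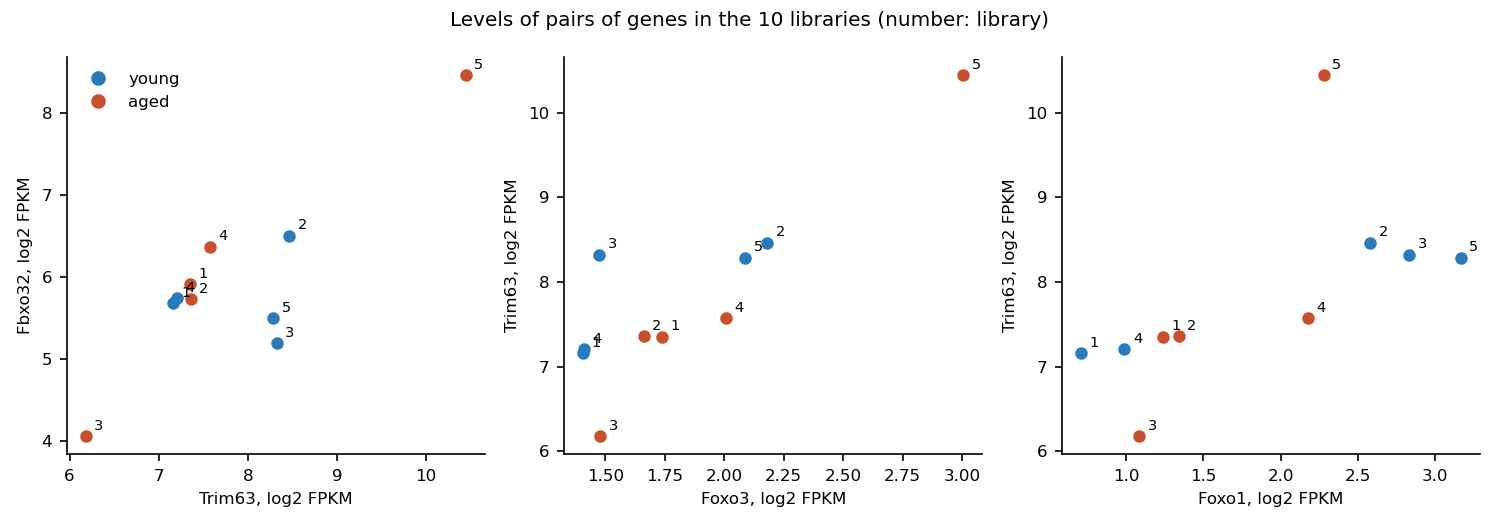
Log2 FPKM of Fbxo32 against Trim63, Trim63 against Foxo3 and Trim63 against Foxo1 in young (blue) and aged (red) libraries, with library numbers. For Fbxo32 against Trim63 aged 5 and aged 3 sit at the ends with no trend among the rest (r = -0.01 without the 2 farthest libraries). Trim63 and Foxo1 share a low set and a high set among the young libraries.

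The genes whose pattern over the 10 libraries was most like that of Fbxo32, among 8215 genes above 0 in all of them, were Xpc (r = 0.98), Ubqln2 (0.98), Zfyve1 (0.98), Med15 (0.98) and Gm5643 (0.98). For Trim63 they were Retsat (0.97), Cwc22 (0.96), Acot2 (0.95), Gucd1 (0.95) and Sugp1 (0.95). All 10 of these were highest in aged 5. Without aged 5 the likeness was 0.94 to 0.97 for the first 5 and 0.85 to 0.92 for the second 5, over 9 libraries that had also served to choose these genes. The closest to Foxo1, added after the values were seen, were Ucp3 (0.97), Tfcp2l1 (0.96), Arrdc2 (0.96), Wbp1l (0.95) and 6430548M08Rik (0.95), of which none was highest in aged 5.

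Other genes of the pathway were read from lists written by role. Of 34 tested FoxO targets and atrophy genes, 4 were higher in aged muscle at an unadjusted exact permutation p under 0.05 (11.8%, against 7.73% of all genes). None was lower (1.5% of all genes were), and the median difference was 0.31 log2 against 0.07. Cdkn1a, the cell-cycle inhibitor p21, rose from 2.27 ± 0.67 (SD, n = 5) to 4.15 ± 0.83 (SD, n = 5) log2 FPKM, with every aged library above every young one (exact permutation p = 0.00794, limma adjusted p = 0.599). Cited2, a coactivator that competes for CBP and p300, rose by 1.41, likewise without overlap (exact permutation p = 0.00794, limma adjusted p = 0.470). Gadd45a, a stress-induced growth arrest gene, rose by 0.81 (exact permutation p = 0.0476), and Ctsl, a lysosomal protease of the atrophy program, rose by 0.48 (exact permutation p = 0.0159), which was 0.20 without aged 5 (exact permutation p = 0.0476). Ubb, a polyubiquitin gene and the most abundant of the list, differed by 0.16 (exact permutation p = 0.579). The list depends on single libraries. Without aged 5 its median difference was 0.06, against 0.05 over all genes. In that setting 4 genes were higher (11.8%, against 7.64% of all genes) and 2 lower (161 of all 10161 genes were). Without aged 3 the median difference was 0.48, against 0.15, with 11 higher (32.4%, against 13.9% of all genes) and 0 lower (161 of all 10161 genes were). Leaving out 1 of the young libraries 1, 4 or 5 left 2 higher (5.88%, against 4.87%, 6.4% and 4.98% of all genes). Cdkn1a and Cited2 passed in each of 13 alternatives (2 scalings, each library left out, both libraries numbered 3 left out), Ctsl in 9 and Gadd45a in 3.

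Among 24 regulators and cofactors of FoxO, 4 were higher (16.7%, against 7.73% of all genes) and 0 lower (1.5% of all genes). The count was 2 without young 2, young 3, young 5, aged 2 or aged 4 (8.33%, against 5.33%, 9.05%, 4.98%, 6.95% and 7.19% of all genes) and 6 without aged 3 (25.0%, against 13.9% of all genes). They were Ywhaz (0.53), a 14-3-3 protein that holds phosphorylated FoxO in the cytoplasm, Prmt1 (0.32), a methyltransferase that acts on FoxO, Pik3ca (0.30), the catalytic subunit of PI3-kinase, and Stk4 (0.29), the kinase MST1. These are differences in log2 FPKM, with exact permutation p between 0.0159 and 0.0476. Ywhaz and Prmt1 passed in each of the same 13 alternatives, Stk4 in 4 and Pik3ca in 3. Akt2, the most abundant regulator, differed by 0.03. Of the 24 SCF subunits and E1 and E2 enzymes, 0 passed the exact test in either direction, against 7.73% of all genes higher and 1.5% lower. Without aged 3, 2 were higher (8.33%, against 13.9% of all genes). Without aged 5, 1 was higher (4.17%, against 7.64% of all genes) and 1 lower (161 of all 10161 genes were). After quantile normalization 1 was lower (346 of all 10161 genes were). Cul1, the scaffold of the SCF complex, differed by 0.46 (exact permutation p = 0.222) and by 0.18 without aged 3. Among all genes named from the lists for a difference with age, the lowest limma adjusted p was 0.470, for Cited2.

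The median difference of the proteasome subunits was 0.20 log2, with 2 of 32 past the exact test upward (6.25%, against 7.73% of all genes) and 0 downward. These were Psmb1 (0.46, exact permutation p = 0.0397) and Psma4 (0.22, exact permutation p = 0.0159), subunits of the core particle. They passed in 6 and 7 of the 13 alternatives, and Psma4 was at 0.11 without aged 5. Psmb7, the most abundant subunit, differed by -0.03. Without aged 5 the median was 0.08 and 1 subunit passed (3.12%, against 7.64% of all genes), without aged 3 it was 0.21 and 6 passed (18.8%, against 13.9% of all genes), and with other single libraries left out 0 to 5 passed (0% without young 1, against 4.87% of all genes, and 15.6% without young 3, against 9.05%). Of 27 other ubiquitin ligases of muscle 2 were higher (7.41%, against 7.73% of all genes), Siah1a (0.45) and Klhl40 (0.37), a Cullin-3 adaptor that stabilizes thin filaments, and 0 were lower (exact permutation p = 0.00794 for both). Klhl40 passed in 13 and Siah1a in 12 of the 13 alternatives. Among 6 tested relatives of the 10 genes, Wwp2 (0.39) and Nedd4l (0.30), HECT ligases of the Nedd4 family, were higher and Foxo6 was lower, with a difference of -0.60 near the detection limit (exact permutation p = 0.00794, 0.0238 and 0.0317). Of all genes 7.73% were higher and 1.5% lower. Wwp2 and Nedd4l passed in 12 of the 13 alternatives and Foxo6 in 5, and after quantile normalization 0 of the 6 passed.

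Of 25 substrates and partners 0 were higher and 1 was lower, against 7.73% and 1.5% of all genes. After median of ratios scaling, without aged 1, without aged 3 or without both libraries numbered 3, 2 were lower (316, 192, 161 and 107 of all 10161 genes were). After quantile normalization 0 were lower (346 of all genes were). Without young 3, aged 3, aged 5 or both libraries numbered 3, 1 was higher (4.0%, against 7.64% to 13.9% of all genes). Myh4, the fast type IIb myosin heavy chain, fell by 0.27 log2 units from 13.07 ± 0.13 (SD, n = 5) to 12.79 ± 0.15 (SD, n = 5) with an exact permutation p of 0.0238, and it passed in 12 of the 13 alternatives, the difference being -0.07 after quantile normalization (exact permutation p = 0.397). Among 26 signals and receptors of atrophy, 3 were higher (11.5%, against 7.73% of all genes) and 0 lower. The count was 1 after either rescaling, without young 5 or without both libraries numbered 3 (3.85%, against 4.22% to 9.92% of all genes) and 5 without young 3 (19.2%, against 9.05% of all genes). Tnfrsf12a, the TWEAK receptor that denervation induces, rose by 1.33 (exact permutation p = 0.0159), Stat3, which transmits interleukin signals, by 0.55 (exact permutation p = 0.0238) and Smad1, a BMP effector, by 0.23 (exact permutation p = 0.0317). Tnfrsf12a passed in each of the 13 alternatives, Stat3 in 7 and Smad1 in 4.

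The high values of aged 5 extended to the FoxO targets and the proteasome. Aged 5 was the highest library for 24 of 34 FoxO targets (70.6%) and for 25 of 32 proteasome subunits (78.1%), where it was highest for 22.7% of all genes. The median over the list of the gap between aged 5 and the other 9 libraries was 1.11 log2 for the FoxO targets, 0.73 for the proteasome and 0.09 for all genes. For the regulators it was 0.25 (highest in 7 of 24), for the SCF and E1 and E2 enzymes 0.21 (10 of 24), for the other ligases 0.17 (10 of 27), for the relatives 0.11 (0 of 6), for the signals 0.19 (6 of 26) and for the substrates -0.13 (3 of 25). These counts describe 1 library of 1 mouse and carry no test.

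Pdk4 had the largest gap of the FoxO targets, 2.91 log2 units above the median of the others, with 9.81 log2 FPKM in aged 5 and 5.75 to 8.31 elsewhere. Cdkn1a was 2.55 above that median. Sesn1, a stress-induced inhibitor of mTORC1, was 2.53 above it, with 5.02 in aged 5 and 1.70 to 2.59 elsewhere. Eif4ebp1, a repressor of cap-dependent translation, was 2.51 above it, at 7.58 in aged 5. Of the proteasome, Psmd11, a lid subunit, stood 1.25 above the median of the others, Psma1 1.11, Psmd4, a ubiquitin receptor, 1.03 and Psma5 1.02. Among the signals Fkbp5 stood 2.82 above the median and Cebpd, a glucocorticoid-responsive factor, 1.83, yet Fkbp5 was higher still in young 2 (6.12, against 5.94 in aged 5).

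**Figure D5:**
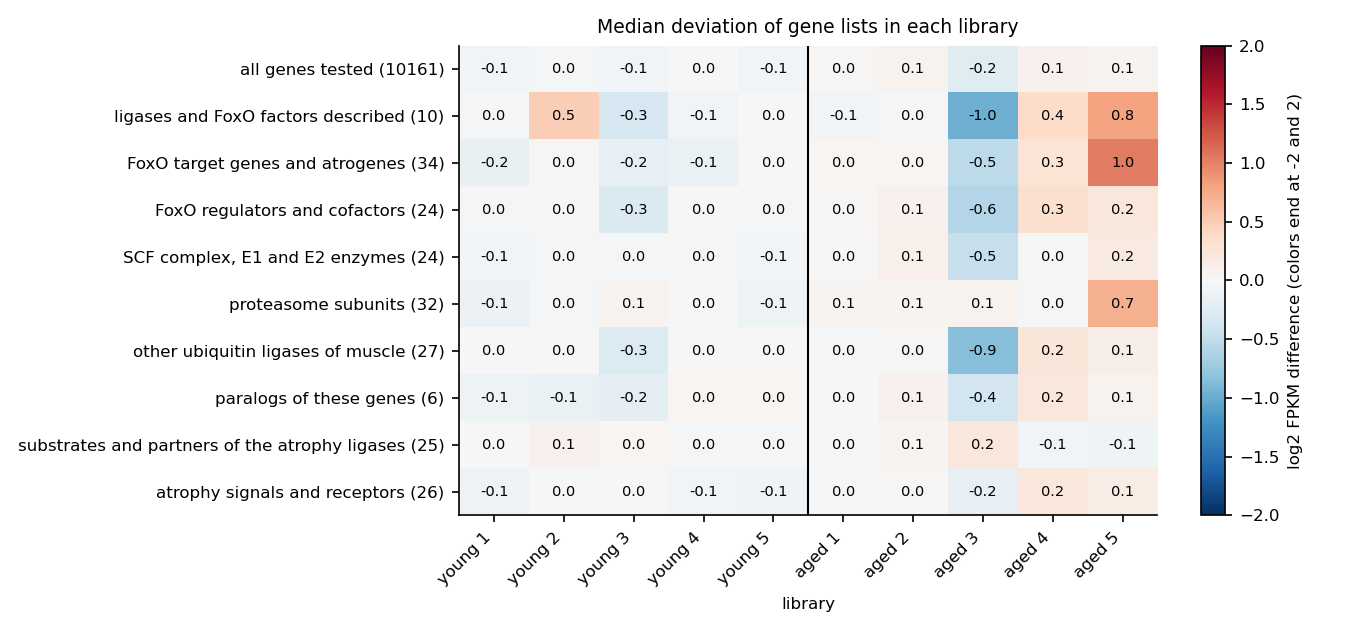
Median over the genes of each list (vertical, number of genes in parentheses) of the deviation from the gene's median over the 10 libraries, in log2 FPKM, for each library (horizontal). Aged 5 is high for the FoxO targets (1.04) and proteasome subunits (0.72) and near 0 for all genes tested (0.06), and aged 3 is low for the other ligases (-0.85) and for the 10 genes described (-0.98).

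Markers of other cells moved in some of the same libraries. The 6 slow-fiber markers, troponins and myosins of type I fibers, had a summed level of 4.40 to 8.26 log2 FPKM in young and 5.63 to 9.80 in aged libraries, with aged 5 the lowest of the aged group. Their median difference between ages was 1.54 log2, with 0 of 6 past the exact test, and their median gap between aged 5 and the other libraries was -2.75. Of 5 tested macrophage markers 3 were higher in aged muscle (Cd68, Lyz2 and C1qb), where 7.73% of all genes were higher, with a summed level of 4.03 to 5.37 in young and 4.91 to 7.08 in aged libraries, the highest being aged 4 (7.08) and aged 3 (6.70), with 5.97 in aged 5. The 4 tested blood markers were also highest in aged 4 (9.51) and aged 3 (9.39), against 7.41 to 8.57 in the other libraries, and 0 of 4 passed the exact test between ages. Of 3 tested Schwann cell markers 1 was higher, against the same 7.73%, with a median difference of 0.81 and a summed level of 3.79 to 6.74 in young and 4.61 to 7.51 in aged libraries. Of 6 tested fibroblast markers 1 was lower (1.5% of all genes were), with a median difference of -0.36 and a summed level that was lowest in aged 3 (7.01, against 7.38 to 8.14 in the other libraries). Their median gap between aged 5 and the other libraries was -0.70. The part of these markers in the levels of the ligases was not tested. The defining T-cell genes Cd3e and Cd3d and the satellite-cell genes Pax7 and Myf5 were not listed above 0 in any library. The other members of these lists did not all lie at 0. The 1 tested lymphocyte marker had 5.85 to 6.72 log2 FPKM in young and 5.44 to 7.45 in aged libraries. Cdh15, the 1 tested satellite-cell marker, had 1.94 to 2.52 in young and 2.03 to 2.36 in aged libraries.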

How the data were processed

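Poly-A RNA of gastrocnemius muscle from 5 young and 5 aged mice was sequenced in paired-end reads. The authors mapped the reads with TopHat2 to mm10 (the build also named in the submitters' processing notes), computed FPKM and deposited its log2 for each transcript and library, without pooling. The study's methods speak of gene-level FPKM on a RefSeq model, whereas the deposited values carry transcript names of the Ensembl and Vega kind, so the annotation behind them is uncertain. An FPKM under 1 was deposited as 0. The counting program is not given in the sources used here, and the library kit does not mark strand. Of 40794 transcripts above 0 in at least 4 libraries, 80.7% held whole reads (within 0.02 read) at an annotated GENCODE M21 length, and reads are used only to describe precision.

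Libraries were grouped by the age in their labels. limma 3.58.1 (R 4.3.3, lmFit and eBayes) was fitted to the log2 FPKM of 38059 transcripts whose FPKM averaged 1 or more, and p was adjusted by the Benjamini-Hochberg method. Genes were compared at their transcript with the highest mean by two-sided exact permutation tests over all 252 splits, and pairs of genes by 100000 permutations, with scipy 1.17.1, pandas 2.3.3 and numpy 2.4.6 under Python 3.11.15, and plots were drawn with matplotlib 3.10.9. The genes, lists and rules were chosen with earlier results of these data known. From each list the text names genes with an exact p under 0.05 (at most 4 by size, or the 2 largest differences where none passed) and the most abundant gene, and 1 gene that this rule names is not reported here. Genes high in aged 5, the genes like Foxo1 and the young contrast were chosen after their values were seen. Both tests were tested on simulated data. Gene positions are from RefSeq (GRCm38.p6).

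Same-numbered libraries of the 2 ages come from different mice, yet their deviations from the group means correlated at 0.131, 0.332, 0.695, 0.39 and 0.208 over transcripts for numbers 1 to 5, so a fit with the replicate block was run as an alternative for the transcripts and the 10 genes. The tests reported are unpaired, and the list genes were not tested in pairs. Other alternatives were other scalings, filters, pseudocounts and transcripts, each library left out, and, chosen after seeing the data, both libraries numbered 3 left out, length trends removed, correlations without aged 5 and the list counts under rescaling or with libraries left out. A pairwise sign test of 5 pairs cannot give a p under 0.0625.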

Additional observations from a re-analysis of the deposited data

Results flagged for a closer look

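Libraries that stood far from the other 4 of their group were looked for among 47 named genes in 94 groups, and 16 were found. The criterion was a gap to the next value of more than 0.71 of the group's range. All lay in young 3, aged 3 or aged 5. Some of the genes were chosen for aged 5, so the count cannot be set against a chance rate. Of the ligases, Fbxo30 was lowest in young 3 at 0.13 log2 FPKM (1.44 to 1.62 in the other young libraries), Trim55 in aged 3 at 1.45 (3.88 to 4.81 in the others) and Nedd4 in young 3 at 4.84 (5.65 to 5.96) and in aged 3 at 3.63 (5.86 to 6.30). Fbxo32 and Trim63 did not meet this criterion in aged muscle, since aged 3 lay low where aged 5 lay high.

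Aged 5 was the high library for Ctsl (6.57 log2 FPKM, 5.02 to 5.34 in the other aged libraries), Sesn1 (5.02, 1.70 to 2.53), Eif4ebp1 (7.58, 4.80 to 5.22), Psma4 (6.68, 6.07 to 6.17), Psmd11 (6.69, 5.33 to 5.63) and Psma5 (6.10, 5.07 to 5.18). Young 3 was high for Psmb1 at 6.58 log2 FPKM and low for Wwp1 at 3.77. Aged 3 was low for Asb2 at 7.16, for Wwp1 at 3.14 and for Tnnt3 at 14.48, and high for Tsc22d3 at 7.61. The genes named for aged 5 were chosen for that library, so their presence here is no independent finding.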

How the results depend on the processing

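Of the 10 genes 0 were called by limma in any alternative run. By the exact permutation test 1 gene passed after median of ratios scaling, after quantile normalization or with the length trend removed (Foxo4 each time), and 0 to 1 passed with single libraries left out (Nedd4 without aged 3, Foxo4 without aged 5). The mean difference changed sign for Trim63 to 0.0394 without young 2, 0.00383 without young 3, 0.00195 without aged 1, 1.77e-05 without aged 2, 0.30 without aged 3 and 0.40 without both libraries numbered 3, and ranged from -0.77 to 0.30 over single libraries left out. For Nedd4 it became 0.0251 without young 1, 0.0154 without young 2, 0.0650 without young 4, 0.46 without aged 3 and 0.27 without both. It became 0.17 for Trim55 without aged 3, -0.21 for Fbxo32 and -0.0643 for Cblb without aged 5, the ranges over single libraries left out being -0.67 to 0.17, -0.21 to 0.89 and -0.0643 to 0.32. Pearson's r of Fbxo30 with Foxo1 became -0.0038 or -0.0484 and that of Fbxo32 with Trim63 -0.0105 (2 farthest libraries out). The number of pairs past the adjusted permutation test, 3, became 8 with each age's mean subtracted, 0 without the 2 farthest libraries, 1 without aged 5 and 1 without both libraries numbered 3. Transcripts higher in aged muscle, 3 by limma, became 5 with a value above 0 in all libraries, 5 with a pseudocount of 1, 0 after either rescaling, 11 without both libraries numbered 3 and 0 to 23 with single libraries left out. With an unadjusted p and a 2-fold criterion there were 218 higher and 35 lower. With the replicate block 0 transcripts passed, and the pairing changed no call among the 10 genes (for Foxo4 -0.17, p = 0.188 by the exact sign permutation of 5 pairs). The cause of these changes was not tested. Levels below an FPKM of 1 could not be measured, which limits Cblb, Fbxo30 and Foxo6.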
